A study of Mus musculus with 12 samples.

Results

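The genes described here encode the subunits of RNA polymerase I, II and III in mouse CD8+ T cells. They were chosen by name, as all symbols in the count table that start with Polr1, Polr2 or Polr3, which gave 28 of 14323 symbols (5, 13 and 10, respectively). Each of the 28 has an entry in GENCODE M21, the mm10 annotation consulted for this report. The cells were naïve TCRβ+CD8+CD62L+CD44- splenocytes of 3 adult wild type mice, of which 100000 per well were cultured for 6 h on immobilized antibodies. The coating was isotype control alone, or isotype with the agonistic anti-LAIR-1 antibody 2C7 at 2.5 µg/ml. Stimulated wells held anti-CD3 (145-2C11) at 2.5 µg/ml with isotype, or anti-CD3 with anti-LAIR-1, each at 2.5 µg/ml. The isotype beside 2C7 is read from the column label iso_2C7, since the protocol describes only coatings with anti-CD3. Anti-CD3 triggers the T cell receptor complex, and LAIR-1 is an inhibitory receptor for collagen. Each of the 4 conditions holds 1 library from each mouse, 12 in all, so that n = 3 for every group. No costimulating antibody is named in the protocol. The spread between libraries of a group holds differences between mice, wells and library preparations, which cannot be told apart.

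Pol I transcribes the large ribosomal RNA precursor, Pol II transcribes messenger RNA and many non-coding RNAs, and Pol III transcribes transfer RNA, 5S ribosomal RNA and other small RNAs. Each enzyme has its own catalytic and peripheral subunits, while a common set is built into all of them and a pair is shared by Pol I and Pol III. Resting naïve T cells are small and make little RNA, and T cell receptor triggering is known to start growth in cell size and ribosome production before the first division. By these roles, the members comprise 3 subunits of Pol I (Polr1a, Polr1b and Polr1e), 2 shared by Pol I and III (Polr1c and Polr1d), 5 shared by all the enzymes (Polr2e, Polr2f, Polr2h, Polr2k and Polr2l), 7 of Pol II (Polr2a, Polr2b, Polr2c, Polr2d, Polr2g, Polr2i and Polr2j), the Pol II-associated Polr2m and 10 of Pol III (among them Polr3a to Polr3f, Polr3g, Polr3gl and Polr3k). The rule by name misses some subunits, since the table carries the Pol I genes Twistnb, Cd3eap and Znrd1 and the Pol III gene Crcp under other symbols. These 4 are not counted among the members and are given beside them.

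Promoters were in the RefSeq table (GRCm38.p6) for 22 of the 28 members. The 250 bases before the start are shown for the Pol III paralogs Polr3g and Polr3gl, which moved in opposite directions with anti-CD3, for Polr2a, the largest Pol II subunit, which did not rise, and for Polr2f, a shared subunit that did. Capitals mark the motif found by the search described after the sequences. The regions are chr13:81711014-81711263 on the minus strand for Polr3g, chr3:96594182-96594431 on the minus strand for Polr3gl, chr11:69758634-69758883 on the minus strand for Polr2a and chr15:79141075-79141324 on the plus strand for Polr2f, each read 5′ to 3′ towards the gene.
Polr3g: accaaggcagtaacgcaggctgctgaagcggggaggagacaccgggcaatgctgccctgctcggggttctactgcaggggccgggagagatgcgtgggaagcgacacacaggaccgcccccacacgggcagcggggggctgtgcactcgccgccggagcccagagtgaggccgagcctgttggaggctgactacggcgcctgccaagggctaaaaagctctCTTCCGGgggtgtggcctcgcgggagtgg
Polr3gl: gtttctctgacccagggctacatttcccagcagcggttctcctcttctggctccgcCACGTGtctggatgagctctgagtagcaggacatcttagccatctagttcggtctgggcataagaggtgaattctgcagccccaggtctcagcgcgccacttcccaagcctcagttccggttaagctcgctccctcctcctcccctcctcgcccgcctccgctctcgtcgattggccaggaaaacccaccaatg
Polr2a: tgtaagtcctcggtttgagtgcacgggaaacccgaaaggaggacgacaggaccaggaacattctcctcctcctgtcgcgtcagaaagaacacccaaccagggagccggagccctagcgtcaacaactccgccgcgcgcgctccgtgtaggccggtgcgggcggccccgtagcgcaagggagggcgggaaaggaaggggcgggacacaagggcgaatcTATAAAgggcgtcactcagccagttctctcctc
Polr2f: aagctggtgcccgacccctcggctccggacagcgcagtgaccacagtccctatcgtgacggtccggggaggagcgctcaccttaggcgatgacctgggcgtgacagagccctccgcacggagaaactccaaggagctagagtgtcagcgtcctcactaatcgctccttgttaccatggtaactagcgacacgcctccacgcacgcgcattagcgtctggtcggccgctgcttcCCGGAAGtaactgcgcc

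The search covered 300 bases per promoter, of which 50 lie after the start, on both strands. CCGGAAG, the core bound by ETS family factors, was present in 7 of 22 members (31.8%): Polr1c, Polr1e, Polr2c, Polr2f, Polr2j, Polr3b and Polr3g. Over all 27025 genes with a RefSeq promoter, whether or not they were measured here, the share was 9.93%. All 7 of these members rose with anti-CD3 and isotype, as did 9 of the 15 without the motif, a difference that was not tested. Of all genes tested in that comparison, 35.3% rose, and this share was not computed for genes with a given motif. CTTCCGG in the Polr3g promoter is the same motif on the other strand. CACGTG, the E-box bound by Myc and related factors, was present in 4 of 22 members (18.2%), namely Polr2h, Polr3c, Polr3e and Polr3gl, and in 8.09% of all genes. Of these 4 members 2 rose with anti-CD3 and isotype, as did 14 of the 18 without the E-box. TATAAA was present in 2 of 22 (9.09%), Polr2a and Polr2c, and in 15.7% of all genes. With TATAAA 1 of 2 rose, and without it 15 of 20. These splits were not tested either. A match is a description of the letters and not a measured binding site.

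Library totals ranged from 1781218 to 3589194 counts without anti-CD3 and from 3478294 to 7725545 with it, so that depth moved with stimulation. Levels are given as CPM, counts scaled to the size of the library with TMM factors. Before these factors are applied, 3 counts correspond to between 0.388 and 1.68 CPM. CPM values are relative to the other RNA of the library, and fewer cells and less RNA per cell cannot be told apart in these bulk samples. The cells carried the markers of their sort. The 7 naïve CD8 T cell markers (among them Cd3e, Cd3d, Cd8a, Cd8b1, Ccr7 and Tcf7) summed to between 3983 and 4292 CPM without anti-CD3, 1318 to 1426 with anti-CD3 and isotype, and 1615 to 1874 with anti-CD3 and anti-LAIR-1, and all 7 fell with anti-CD3 and isotype. The 5 activation genes Il2ra, Myc, Nr4a1, Cd69 and Egr2 all rose, Myc by 3.94 on the log2 scale. The 4 B cell markers (among them Cd79a, Cd79b and Ms4a1) summed to between 3.87 and 9.68 CPM without anti-CD3 and 1.08 to 4.23 with it, and their part in the results was not tested. Markers of CD4 T cells summed to at most 4.84 CPM, those of myeloid cells to at most 1.63 and the 1 measured NK cell marker, Klrb1c, to at most 0.66. Lair1 itself was at 0 to 2.44 CPM.

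Anti-CD3 raised the RNA of most polymerase subunits. In the isotype libraries 20 of 28 members rose and 1, Polr3gl, fell, at an adjusted p-value under 0.05 (edgeR quasi-likelihood test). Of the 8690 genes tested, 71.3% passed in either direction, 35.3% higher and 36.1% lower. The share of members called in either direction, 75.0%, was thus close to that of all genes, whereas the share called higher, 71.4%, was above the 35.3% of all genes. The median log2 fold change was 1.00 over the members and -0.03 over all genes tested. With anti-LAIR-1 in both arms, 23 members rose and 2, Polr3gl and Polr2a, fell, and 72.7% of the 9000 genes tested were called (36.4% higher and 36.3% lower). The median was 1.11 over the members and -0.04 over all genes. A rise of more than 1 on the log2 scale was called for 14 members with isotype and 16 with anti-LAIR-1, against 20.8% and 19.3% of all genes. All members called moved in the same direction in all 3 mice, and in none of them did the groups overlap. Groups without overlap were seen for 22 members with isotype and 26 with anti-LAIR-1, against 73.5% and 75.0% of all genes compared. With every library thinned to the smallest total, 20 members rose with isotype and 23 with anti-LAIR-1, of 26 tested in each.

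**Figure D1:**
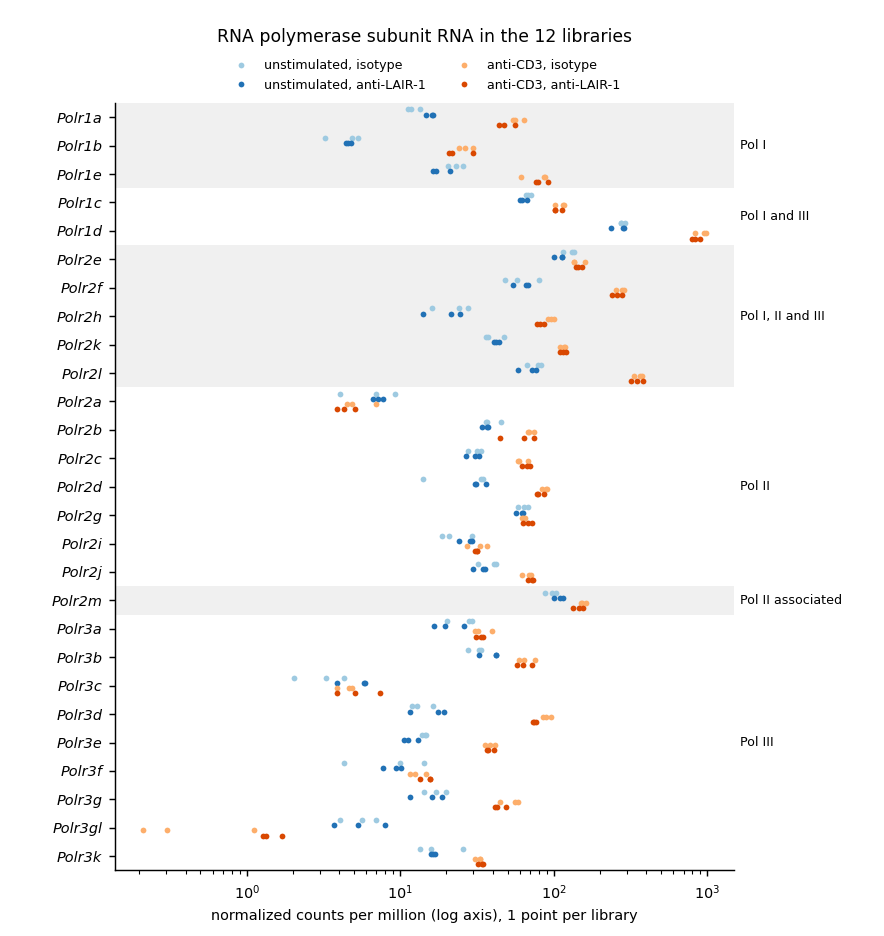
Level of 27 polymerase subunits in the 12 libraries, in CPM (counts scaled to library size) on a log axis, with 1 point per library and colours for the 4 groups of 3. Most subunits lie to the right in the 6 anti-CD3 libraries, while Polr3gl lies to the left and Polr2a and Polr2g do not move to the right.

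The dedicated Pol I subunits rose together. Polr1a encodes the largest subunit, which forms the catalytic centre together with the second largest, encoded by Polr1b. Polr1a was at 11.2, 13.4 and 11.8 CPM in the unstimulated isotype libraries and at 63.7, 56.3 and 54.0 CPM with anti-CD3 and isotype. In the anti-LAIR-1 libraries it was at 14.7, 16.2 and 16.3 CPM without and 55.9, 43.7 and 47.6 CPM with anti-CD3. All 6 stimulated libraries were well above all 6 unstimulated ones, with log2 fold changes of 2.21 (SE 0.17, adjusted p = 7.77e-11) with isotype and 1.64 (SE 0.15, adjusted p = 8.09e-09) with anti-LAIR-1. Polr1b was the lowest of these genes in count, at 5.29, 3.26 and 4.84 CPM unstimulated and 26.6, 29.6 and 24.3 CPM with anti-CD3 in the isotype libraries. This was a 5.78-fold rise (log2 2.53, SE 0.26, adjusted p = 8.17e-09), and the log2 fold change in the anti-LAIR-1 libraries was 2.40 (SE 0.23, adjusted p = 1.6e-08). Polr1e, a subunit found only in Pol I, went from 23.1, 25.7 and 20.4 CPM to 86.9, 87.2 and 61.5 CPM with isotype, where the library of mouse 3 was the lowest of the stimulated group but still above all unstimulated ones. Its log2 fold change was 1.71 (SE 0.17, adjusted p = 3.1e-09) with isotype and 2.16 (SE 0.14, adjusted p = 3.17e-11) with anti-LAIR-1. The Pol I genes under other symbols also rose with isotype: Cd3eap, whose product pairs with that of Polr1e, by 2.30 (SE 0.19, adjusted p = 1.75e-10), the stalk subunit Twistnb by 1.25 (SE 0.14, adjusted p = 2.14e-08) and the zinc ribbon subunit Znrd1 by 0.55 (SE 0.12, adjusted p = 3.35e-04).

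The subunits common to all the enzymes split into a group that rose strongly and Polr2e. Polr2l, a small zinc-binding subunit, was at 67.4, 79.4 and 82.9 CPM in unstimulated and 364, 334 and 377 CPM in anti-CD3-stimulated isotype libraries. The log2 fold change was 2.20 (SE 0.11, adjusted p = 1.42e-14), the lowest adjusted p-value among the members, and it was 2.33 (SE 0.10, adjusted p = 2.04e-13) with anti-LAIR-1. Polr2f rose by 2.12 (SE 0.13) and 2.05 (SE 0.10), Polr2h by 2.02 (SE 0.15) and 2.03 (SE 0.15), and Polr2k by 1.49 (SE 0.13) and 1.43 (SE 0.10), with isotype and with anti-LAIR-1 respectively, at adjusted p-values of at most 4.66e-10. Polr2e, which belongs to the jaw that grips the incoming DNA, was at 114, 136 and 132 CPM unstimulated and 135, 136 and 161 CPM with anti-CD3 in the isotype libraries. These groups overlapped (log2 0.15, SE 0.11, adjusted p = 0.248). In the anti-LAIR-1 libraries Polr2e went from 100.4, 113 and 113 CPM to 139, 144 and 154 CPM without overlap (log2 0.41, SE 0.09, adjusted p = 4.49e-04), although upper quartile scaling ended this call (log2 0.20, adjusted p = 0.0541). Within a library, the ratio of Polr2l to Polr2e counts was 0.515 to 0.714 in the 6 unstimulated and 2.21 to 2.70 in the 6 anti-CD3 libraries. The ratio does not depend on library scaling, and it shows that these RNAs changed unequally.

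Polr1c and Polr1d encode the assembly pair of Pol I and Pol III, on which the catalytic subunits of both enzymes are built. Polr1d had the highest level of all members on the CPM scale, at 289, 273 and 272 CPM unstimulated and 835, 947 and 974 CPM with anti-CD3 in the isotype libraries (log2 1.69, SE 0.09, adjusted p = 6.27e-14). With anti-LAIR-1 it rose by 1.64 (SE 0.08, adjusted p = 1.28e-12). Polr1c changed less, from 65.7, 68.4 and 71.0 CPM to 102, 116 and 115 CPM with isotype (log2 0.67, SE 0.12, adjusted p = 1.68e-05), and by 0.74 (SE 0.10, adjusted p = 1.77e-06) with anti-LAIR-1. Neither gene's groups overlapped.

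**Figure D2:**
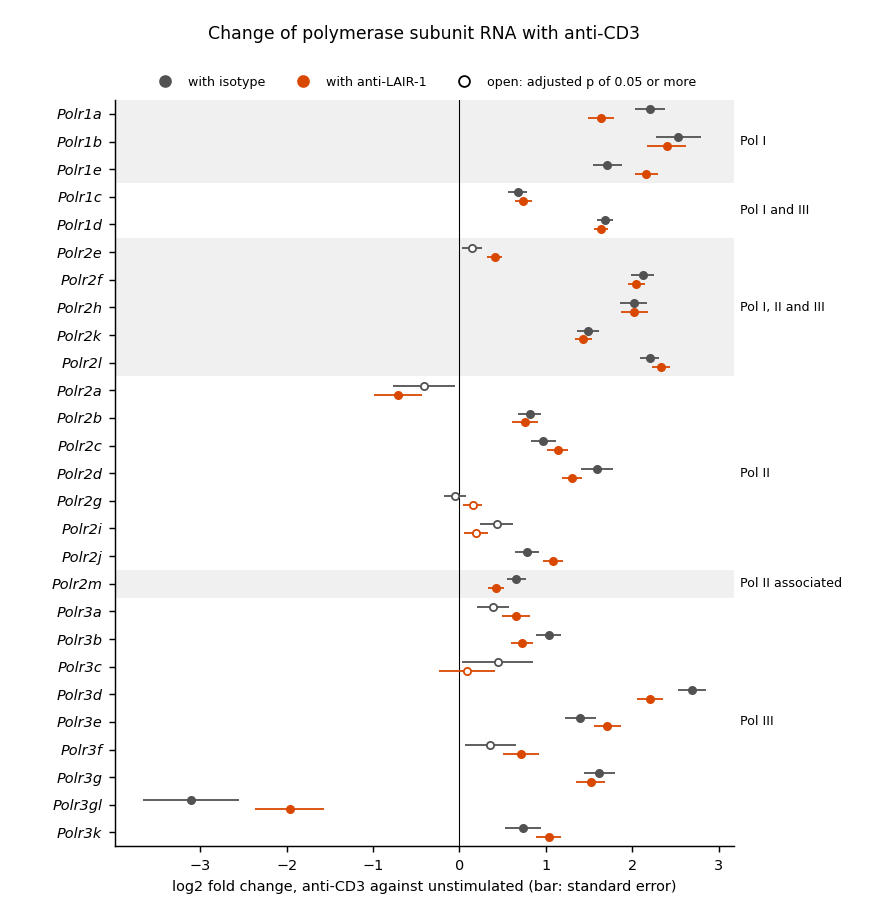
Log2 fold change of 27 subunits with anti-CD3 against unstimulated, with isotype (grey) and with anti-LAIR-1 (orange), from fits of 3 libraries against 3. Bars are standard errors and open points have an adjusted p-value of 0.05 or more. The Pol I subunits lie between 1.64 and 2.53, the Pol II subunits between -0.71 and 1.59, and Polr3gl at -3.11 and -1.97.

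Of the 7 dedicated Pol II subunits, 4 rose with isotype (57.1%, against 35.3% of all genes tested). Their median log2 fold change, 0.78, was the smallest of the enzymes but above the -0.03 of all genes. Polr2a encodes the largest subunit, whose repeated C-terminal tail is phosphorylated during transcription. It was at 9.25, 4.07 and 6.99 CPM in unstimulated isotype libraries, and with anti-CD3 at 6.94, 4.87 and 4.50 CPM, so that the groups overlapped (log2 -0.41, SE 0.36, adjusted p = 0.313). This value was -0.061 without unstimulated mouse 1, -0.69 without unstimulated mouse 2 and -0.11 after thinning, and passed in none of these. In the anti-LAIR-1 libraries the groups did not overlap, with 6.64, 7.15 and 7.75 CPM unstimulated and 4.31, 3.88 and 5.08 CPM with anti-CD3 (log2 -0.71, SE 0.28, adjusted p = 0.0278). This call was lost in DESeq2 (adjusted p = 0.0834), with the mouse as a replicate block in DESeq2 (0.18), without the filter on low counts (0.084), after thinning (0.15), and when any 1 of 4 libraries was left out, which were unstimulated mouse 2 (0.0551) or 3 (0.0807) and anti-CD3 mouse 1 (0.0788) or 2 (0.0991).

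Polr2b, the second largest subunit and partner of Polr2a in the active site, went from 36.7, 36.3 and 45.2 CPM to 74.3, 67.7 and 69.2 CPM with isotype (log2 0.81, SE 0.14, adjusted p = 1.18e-05) and changed by 0.76 (SE 0.15, adjusted p = 2.16e-04) with anti-LAIR-1. The assembly pair Polr2c and Polr2j rose by 0.97 (SE 0.15) and 0.78 (SE 0.14) with isotype and by 1.14 (SE 0.12) and 1.09 (SE 0.12) with anti-LAIR-1, at adjusted p-values of at most 2.95e-05. The stalk pair Polr2d and Polr2g, which guides the emerging RNA, moved unequally. Polr2d was at 34.7, 33.4 and 14.0 CPM unstimulated, with mouse 3 well under the others, and at 89.7, 84.4 and 89.8 CPM with anti-CD3 and isotype (log2 1.59, SE 0.18, adjusted p = 4.71e-08), and it rose by 1.30 (SE 0.12, adjusted p = 5.51e-09) with anti-LAIR-1. Polr2g was at 68.4, 64.4 and 58.6 CPM unstimulated and 63.1, 62.4 and 64.7 CPM stimulated, with overlapping groups and log2 fold changes of -0.05 (SE 0.12, adjusted p = 0.721) with isotype and 0.15 (SE 0.11, adjusted p = 0.205) with anti-LAIR-1. The ratio of Polr2d to Polr2g was 0.239 to 0.573 in the unstimulated and 1.10 to 1.42 in the anti-CD3 libraries. Polr2i, the zinc ribbon subunit involved in start site choice and fidelity, missed the threshold with isotype (log2 0.43, SE 0.19, adjusted p = 0.0504). It passed with the mouse as a replicate block in edgeR (adjusted p = 0.0393), with DESeq2 size factors (0.0456), without the filter on low counts (0.0128), with all 12 libraries in the fit (0.0208), and without unstimulated mouse 1 (log2 0.67, adjusted p = 0.00956) or anti-CD3 mouse 2 (log2 0.57, adjusted p = 0.0182). With upper quartile scaling the isotype value was 0.25 (adjusted p = 0.244). In the anti-LAIR-1 libraries Polr2i had a log2 fold change of 0.19 (SE 0.14, adjusted p = 0.22). Polr2m, whose product binds Pol II rather than forming part of its core, rose by 0.66 (SE 0.11, adjusted p = 8.89e-06) and 0.42 (SE 0.09, adjusted p = 4.9e-04), the latter being 0.21 with upper quartile scaling (adjusted p = 0.0473).

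Pol III subunits covered the widest range. The heterodimer of Polr3d and Polr3e, which acts in initiation and termination, rose in both comparisons. Polr3d was at 11.9, 16.3 and 12.9 CPM unstimulated and 85.4, 89.3 and 96.0 CPM with anti-CD3 in the isotype libraries (log2 2.69, SE 0.16, adjusted p = 4.51e-13). Polr3e was at 13.9, 14.7 and 14.5 CPM and rose to 35.9, 41.7 and 38.5 CPM (log2 1.40, SE 0.18, adjusted p = 3.34e-07). They rose by 2.21 (SE 0.15, adjusted p = 9.86e-11) and 1.71 (SE 0.16, adjusted p = 9.11e-09) with anti-LAIR-1.

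The catalytic subunits of Pol III changed less. Polr3b, the second largest, rose by 1.03 (SE 0.15, adjusted p = 1.57e-06) and 0.72 (SE 0.13, adjusted p = 5.84e-05). Polr3a, the largest, was at 20.1, 29.3 and 28.0 CPM unstimulated and 30.5, 39.8 and 32.3 CPM with anti-CD3 and isotype. These groups did not overlap, but the test missed the threshold (log2 0.39, SE 0.18, adjusted p = 0.0606), whereas with anti-LAIR-1 it passed (log2 0.66, SE 0.16, adjusted p = 0.00126). Leaving out unstimulated mouse 2 or anti-CD3 mouse 1 brought the isotype comparison to adjusted p-values of 0.0367 and 0.0393. It also passed without the filter on low counts (0.0193) and with all 12 libraries in the fit (0.0383). By contrast, the value was 0.22 (adjusted p = 0.322) without unstimulated mouse 1 and 0.21 (adjusted p = 0.297) with upper quartile scaling. Polr3k, the zinc ribbon subunit needed for RNA cleavage, rose by 0.73 (SE 0.21, adjusted p = 0.00298) and 1.03 (SE 0.15, adjusted p = 3.66e-06).

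Polr3c, Polr3f and either Polr3g or Polr3gl form the trimer with which Pol III contacts its initiation factors. Polr3c was close to the limit of the counts, at 2.04 to 5.88 CPM unstimulated and 3.85 to 7.41 CPM stimulated, and passed in neither comparison (log2 0.44, SE 0.41, adjusted p = 0.346 with isotype, and 0.09, SE 0.32, adjusted p = 0.823 with anti-LAIR-1). Polr3f had a log2 fold change of 0.36 (SE 0.30, adjusted p = 0.286) with isotype, which was 0.067 without unstimulated mouse 3 and 0.71 without unstimulated mouse 2 (adjusted p = 0.838 and 0.0645), and rose by 0.71 (SE 0.21, adjusted p = 0.00448) with anti-LAIR-1. The difference between these effects was itself tested and did not pass (interaction 0.33, SE 0.37, adjusted p = 0.792).

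The paralogs Polr3g and Polr3gl occupy the same place in alternative forms of Pol III, and Polr3g is known from stem cells and proliferating cells. Polr3g was at 14.2, 17.1 and 19.9 CPM unstimulated and 58.3, 44.7 and 56.1 CPM with anti-CD3 in the isotype libraries (log2 1.62, SE 0.18, adjusted p = 2.36e-08), and it rose by 1.52 (SE 0.16, adjusted p = 9.84e-08) with anti-LAIR-1. Polr3gl was read from few counts, 17, 10 and 13 in the unstimulated isotype libraries and 1, 1 and 7 with anti-CD3. In the anti-LAIR-1 libraries it had 29, 14 and 20 counts without and 10, 10 and 6 with anti-CD3, although the stimulated libraries were the deeper ones.

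Polr3gl fell by 3.11 on the log2 scale (SE 0.55, adjusted p = 2.74e-05) with isotype and by 1.97 (SE 0.40, adjusted p = 1.96e-04) with anti-LAIR-1. It passed the filter on low counts through the unstimulated groups. The library of mouse 3 held 7 of the 9 stimulated isotype counts, and without it the log2 fold change was -4.26. Scaled to library size with TMM factors, its pooled counts were 8.63 times higher without than with anti-CD3 in the isotype libraries (exact 95% interval 4.12 to 20.2, counting error only) and 3.93 times higher in the anti-LAIR-1 libraries (2.46 to 6.47). The interaction was 1.13 (SE 0.74, adjusted p = 0.599). Polr3gl made up 19.2% to 29.9% of the counts of both paralogs in the 6 unstimulated libraries and 0.472% to 3.79% in the 6 anti-CD3 libraries. The Wilson 95% intervals of these shares reached down to 10.8% in the unstimulated and up to 6.83% in the stimulated libraries. After thinning or with at least 10 counts required in every library of the isotype comparison, Polr3gl was no longer tested.

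Side by side, the dedicated subunits of the enzymes had median log2 fold changes of 2.21 (Pol I), 0.88 (Pol III) and 0.78 (Pol II) with isotype, and of 2.16, 0.88 and 0.76 with anti-LAIR-1. Without Polr3gl the Pol III median was 1.03 in both comparisons, and with Twistnb, Cd3eap and Znrd1 added the Pol I median was 1.96 and 1.90. The Pol III gene Crcp, at 0.82 with isotype and 0.83 with anti-LAIR-1, was not added to the Pol III medians. The subunits common to all had medians of 2.02 and 2.03. Per mouse, on the log2(CPM + 1) scale, the isotype medians of Pol I were 2.13, 1.99 and 2.10, those of Pol III 0.76, 1.03 and 1.29 and those of Pol II 0.71, 0.79 and 0.78 for mice 1 to 3. In the anti-LAIR-1 libraries they were 2.09, 1.85 and 1.99 for Pol I, 1.00, 0.95 and 0.89 for Pol III and 0.78, 0.91 and 0.38 for Pol II. Pol I was thus highest and Pol II lowest in each mouse under both antibodies. The medians are descriptions of 3, 10 and 7 genes and were not tested against each other.

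Homologous positions of the enzymes are given side by side and were not tested against each other. For the largest subunit, the log2 fold changes with isotype were 2.21 for Polr1a, 0.39 for Polr3a and -0.41 for Polr2a, the last resting on few counts, and for the second largest they were 2.53 for Polr1b, 1.03 for Polr3b and 0.81 for Polr2b. The order of Polr3b and Polr2b turned in the anti-LAIR-1 libraries, with 0.72 and 0.76. At the stalk position the isotype values were 1.25 for Twistnb and -0.05 for Polr2g. The other stalk subunit had its higher value in Pol II, with 1.59 for Polr2d and 0.82 for Crcp (SE 0.19, adjusted p = 6.39e-04). At the zinc ribbon position the isotype values lay close to each other, with 0.73 for Polr3k, 0.55 for Znrd1 and 0.43 for Polr2i. With anti-LAIR-1 they lay further apart, at 1.03, 0.81 and 0.19. The ratio of Polr1a to Polr2a was 1.21 to 3.30 in unstimulated and 9.17 to 12.97 in anti-CD3 libraries.

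**Figure D3:**
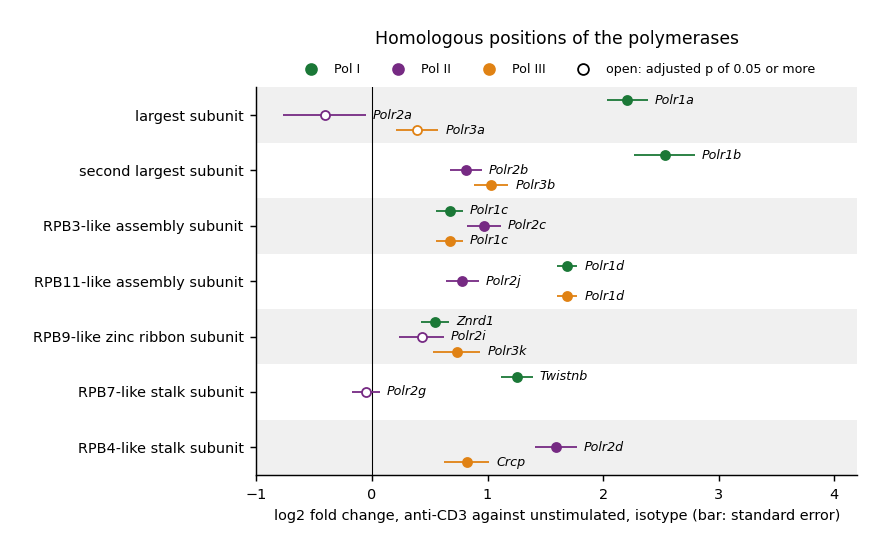
Log2 fold change with anti-CD3 against unstimulated in the isotype libraries for subunits at homologous positions of Pol I (green), Pol II (purple) and Pol III (orange). Bars are standard errors, open points have an adjusted p-value of 0.05 or more, and Polr1c and Polr1d appear under both enzymes that share them. The Pol II subunit has the lowest value at 5 of the 7 positions, the exceptions being Polr2c and Polr2d. With anti-LAIR-1, not shown, Polr2b (0.76) was also above Polr3b (0.72).

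Summed over their dedicated members, the subunits made up 39.7 ± 2.62 CPM for Pol I, 230 ± 16.4 CPM for Pol II and 143 ± 6.84 CPM for Pol III (mean ± SD, n = 3) in the unstimulated isotype libraries. With anti-CD3 and isotype the sums were 163 ± 20.6, 389 ± 18.7 and 364 ± 3.74 CPM. The ratio of the Pol I to the Pol II sum was 0.160 to 0.188 in the 6 unstimulated and 0.346 to 0.470 in the 6 anti-CD3 libraries. For Pol III to Pol II it was 0.556 to 0.674 and 0.847 to 1.00. These ratios compare conditions within a set of genes. They are not stoichiometries, since counts from the 3′ end depend on how well each transcript is captured. The sums and ratios also leave out the genes under other symbols. With isotype, mean CPM without and with anti-CD3 was 47.6 and 117 (Twistnb), 17.7 and 86.9 (Cd3eap), 68.7 and 102 (Znrd1), and 16.3 and 29.95 (Crcp). Unstimulated, Twistnb and Znrd1 were each above the whole Pol I sum, and both rose less than each Pol I member. The Pol I ratios thus describe the Polr1 members only, and ratios with these genes added were not computed.

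**Figure D4:**
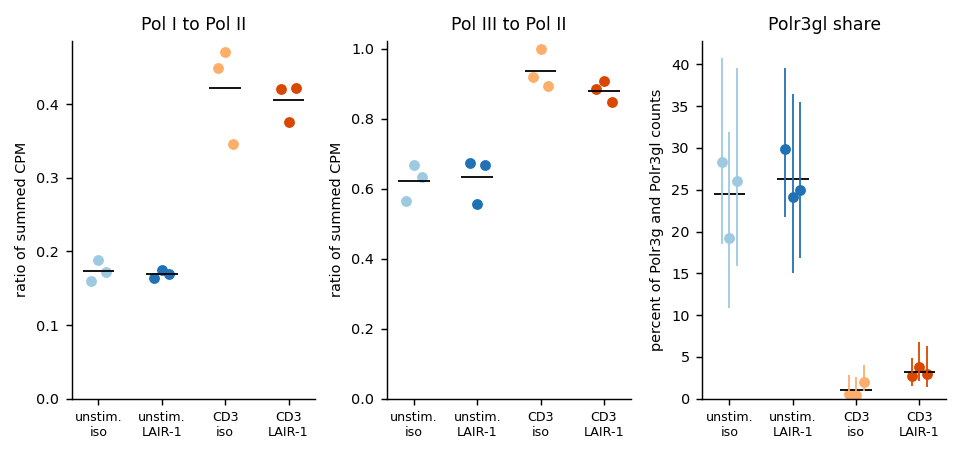
Ratio of summed CPM of dedicated Pol I to Pol II subunits (left) and of Pol III to Pol II subunits (middle), and Polr3gl as percent of the counts of Polr3g and Polr3gl (right), with 1 point per library, 3 libraries per group and a line at the group mean. Bars on the right are Wilson 95% intervals for counting error. In each panel the 6 anti-CD3 libraries do not overlap with the 6 unstimulated ones. The sums leave out Twistnb, Cd3eap, Znrd1 and Crcp.

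LAIR-1 ligation was compared with isotype to see whether it altered these genes. With anti-CD3, none of the 27 members tested passed in edgeR or in DESeq2, where 5.76% of the 8800 genes tested did so in edgeR. Polr3gl was too low to be tested there. At an unadjusted p-value under 0.05 there were 2 members, against 18.8% of all genes, and the groups of the same 2 members did not overlap, against 24.2% of genes compared. Polr3d was at 85.4, 89.3 and 96.0 CPM with isotype and 77.2, 73.2 and 74.9 CPM with anti-LAIR-1 (log2 -0.28, SE 0.09, adjusted p = 0.0758). Polr2h was at 96.0, 91.4 and 100.4 CPM with isotype and 87.0, 78.0 and 81.0 CPM with anti-LAIR-1 (log2 -0.23, SE 0.09, adjusted p = 0.145). Both were lower in 3 of 3 mice. The log2 fold changes of the 27 members ranged from -0.28 to 0.33 with standard errors of 0.07 to 0.31, and their median was -0.06, where that of all genes was 0.00. The medians were -0.14 for Pol I, -0.06 for Pol II and -0.04 for Pol III. They depended on single libraries, as the Pol I median was -0.33 without the anti-LAIR-1 library of mouse 1, the Pol II median was -0.16 and 0.048 without the isotype libraries of mouse 2 and mouse 3, and the Pol III median was 0.024 and -0.12 without these same libraries. Of the Pol I genes under other symbols, Twistnb was lower with anti-LAIR-1, at 94.2, 133 and 122 CPM with isotype and 84.3, 90.1 and 90.8 CPM with anti-LAIR-1 (log2 -0.42, SE 0.11, adjusted p = 0.0275).

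**Figure D5:**
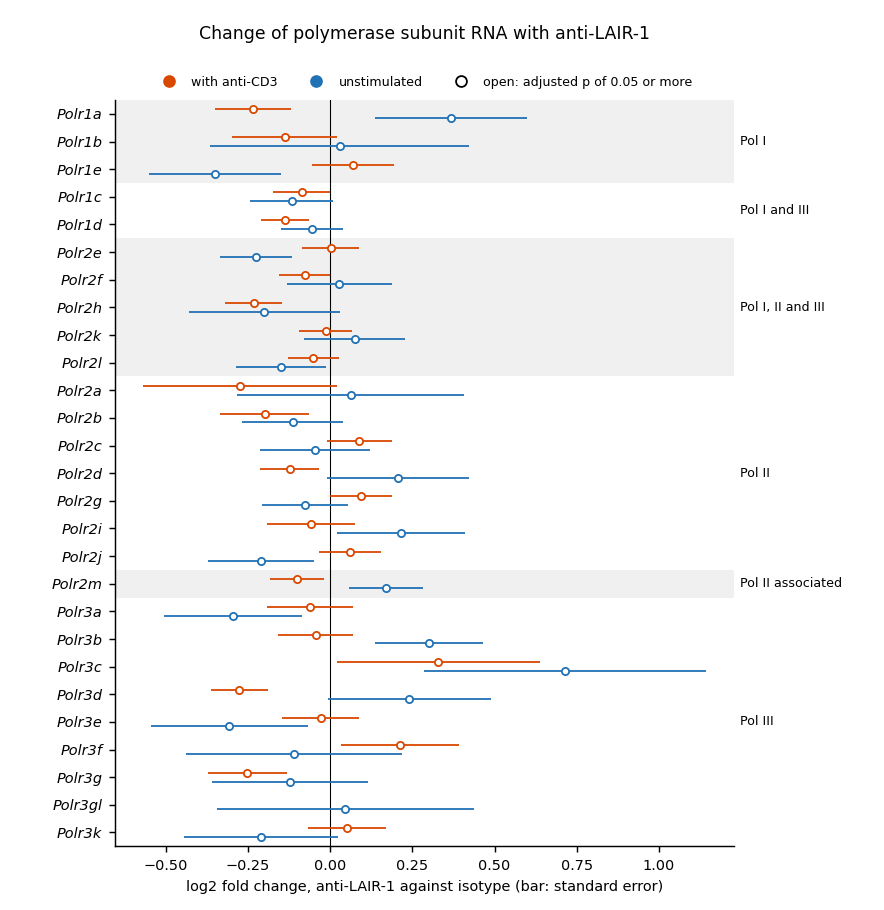
Log2 fold change of 27 subunits with anti-LAIR-1 against isotype, in anti-CD3 (orange) and unstimulated (blue) libraries, 3 against 3, with standard errors as bars. All points are open, since no adjusted p-value was under 0.05, and Polr3gl has no orange point because it was not tested with anti-CD3.

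Without anti-CD3, 0 of 28 members passed in edgeR, and 0 did so at an unadjusted p-value under 0.05 or in DESeq2. Of the 8770 genes tested, 0.0% passed and 4.38% had an unadjusted p-value under 0.05. The log2 fold changes of the members ranged from -0.35 (Polr1e) to 0.71 (Polr3c), with standard errors of 0.09 to 0.43. The groups did not overlap for 3 members, Polr1a, Polr2e and Polr3e, against 9.66% of all genes. The interaction, which asks whether the response to anti-CD3 differed with anti-LAIR-1, passed for 0 of 28 members in edgeR. Of the 9223 genes tested, 2.07% passed in edgeR. The interaction also passed for 0 members in DESeq2, which gave an adjusted p-value to only 5825 of the 9223 genes. It thus passed for none of Polr2a, Polr2e, Polr3a and Polr3f, which were called with anti-LAIR-1 and not with isotype. At an unadjusted p-value under 0.05 there were 2 members (12.2% of all genes), Polr1a with -0.60 (SE 0.23, adjusted p = 0.246) and Polr3d with -0.51 (SE 0.23, adjusted p = 0.355). These p-values do not show that the antibodies acted alike on the members.

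The factors that work with each enzyme were counted in the isotype comparison from lists kept apart from the subunits. Of the Pol I initiation and termination factors, 4 of 6 tested rose and 2 fell, where 35.3% of all genes rose. Rrn3, which brings Pol I to the promoter, rose by 1.58 (SE 0.14, adjusted p = 7.56e-10), Taf1d by 1.11 (SE 0.12), Taf1a by 1.17 (SE 0.19) and Ubtf, which binds ribosomal DNA, by 0.60 (SE 0.17). Taf1b fell by 0.81 on the log2 scale (SE 0.25, adjusted p = 0.00599), without overlap. Ttf1 had a log2 fold change of -0.51 (SE 0.17, adjusted p = 0.0128), with overlapping groups and a lower value in 2 of 3 mice. Of the general transcription factors of Pol II, 13 of 18 rose, among them the TFIIF subunit Gtf2f2 by 1.87 (SE 0.14), the TFIIE subunit Gtf2e2 by 1.85 (SE 0.19), and the kinase Cdk7 and its cyclin Ccnh by 1.46 (SE 0.15) and 1.65 (SE 0.18). The pausing and elongation factors were mixed, as 5 of 13 rose and 2 fell. The 38.5% that rose was close to the share of all genes, and the 53.8% called was under the 71.3% of all genes. Supt4a, a subunit of the DSIF elongation factor, fell by 1.20 (SE 0.12, adjusted p = 3.47e-09), and Tcea1, Supt6 and Ccnt1 rose by 0.56 (SE 0.09), 0.63 (SE 0.14) and 0.54 (SE 0.12).

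Of the Pol III factors, 8 of 16 rose (50.0%) and 2 fell. In all 62.5% were called, under the 71.3% of all genes, of which 35.3% rose. Maf1, the repressor of Pol III, was at 96.1, 91.2 and 104 CPM unstimulated and 27.5, 28.1 and 40.6 CPM with anti-CD3 and isotype, a fall without overlap (log2 -1.61, SE 0.15, adjusted p = 9.63e-10), and with anti-LAIR-1 the change was -1.54 (SE 0.12, adjusted p = 1.18e-09). Ssb, the La protein that binds new Pol III transcripts, rose by 1.09 (SE 0.10), the TFIIIC subunit Gtf3c6 by 0.97 (SE 0.16) and the TFIIIB subunit Bdp1 by 0.73 (SE 0.15). Of the assembly factors, 5 of 9 rose (55.6%) and none fell, so that the share called was also under that of all genes. The ATPases Ruvbl1 and Ruvbl2, which act in a chaperone complex that also serves polymerases, rose by 2.51 (SE 0.13, adjusted p = 4.13e-14) and 2.00 (SE 0.12, adjusted p = 3.31e-13), the GTPase Gpn1 by 1.43 (SE 0.24) and Rpap3 by 1.10 (SE 0.22). When stimulated libraries with anti-LAIR-1 were compared with isotype, 1 of 6 Pol I factors tested passed, 1 of 18 general factors of Pol II and 1 of 17 Pol III factors, against 5.76% of all genes. In edgeR 0 of 14 elongation factors passed (1 at an unadjusted p-value under 0.05), and 0 of 9 assembly factors (0 at an unadjusted p-value under 0.05). Anti-LAIR-1 lowered Taf1d (log2 -0.40, SE 0.09, adjusted p = 0.01) and Bdp1 (log2 -0.45, SE 0.13, adjusted p = 0.0478) and raised the TFIIH helicase Ercc2 (log2 0.52, SE 0.13, adjusted p = 0.0221).

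Genes on the opposite strand overlap Polr1e (Fbxo10), Polr2b (Igfbp7), Polr2c (Dok4), Polr2f (1700088E04Rik), Polr2h (Clcn2), Polr2i (Tbcb), Polr2j (Lrwd1) and Polr3gl (Gm16253), and Polr2k has an annotated pseudogene. Whether counting used the strand is not given in the sources used here, so the values of these genes may hold reads of their neighbours or copies.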

How the data were processed

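Libraries were made by the authors from total RNA of each well with an adapted CEL-seq protocol, which reads transcripts near the 3′ end, and sequenced on a NextSeq 500. The authors used BWA MEM and mm10 transcripts to place read 2 of each pair. Only reads with a single best position were kept, and the authors deposited raw counts per gene symbol. Versions of these tools, counting strand and collapsing of molecular identifiers are not given in the sources used here, so intervals cover counting error only.

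Groups were compared with edgeR 4.0.16 in R 4.3.3 (TMM, filterByExpr, quasi-likelihood F-test, Benjamini-Hochberg over all genes tested, threshold 0.05), with 6 libraries per comparison and 12 for the interaction. Standard errors are the log2 fold change divided by the root of F. With 3 against 3, an exact permutation test cannot go below 0.1 and was not used. The scripts were tested on simulated counts. DESeq2 1.42.0 (the study used another version of this tool), other scalings and filters, all 12 libraries in 1 fit, thinning to the smallest total and leaving out each library were alternatives, as was the mouse number as a block. The numbers pair libraries of the same mouse. Across genes, the correlation of same-mouse libraries after subtracting group means was between -0.0068 and 0.0882. Within groups, libraries varied 3.81 to 5.62 times as much as counting alone would give, so none was a copy of another.

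All members are named except 1, which stays in counts, medians and sums and, like some marker genes, is not reported here by itself. Of the other lists, genes are named for the lowest adjusted p-values with anti-CD3 and isotype (up to 4 a list) or for passing in an anti-LAIR-1 comparison; Taf1b, Ttf1 and the marker genes were named after their values were seen. Members and lists were chosen with earlier results of these data known. Promoters are from RefSeq (GRCm38.p6).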

Additional observations from a re-analysis of the deposited data

How the results depend on the processing

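The counts of members called stayed within 1.5 times of the reported ones under every alternative run: 18 to 23 with anti-CD3 and isotype, 23 to 25 with anti-CD3 and anti-LAIR-1, and 0 in the other comparisons. With the mouse as a replicate block in edgeR the counts were 22 and 25, and apart from Polr2i and, in DESeq2, Polr2a the block changed no call of a member.

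Upper quartile scaling shifted the median of all genes to -0.20 and -0.24 in the anti-CD3 comparisons, and changes under it are to be read against that shift. It gave medians of 2.03 (Pol I) and 0.61 (Pol II) with isotype, and 1.96 (Pol I) and 0.67 (Pol III) with anti-LAIR-1, and turned the values of genes that were not called: Polr2e with isotype to -0.031, and Polr2g, Polr2i and Polr3c with anti-LAIR-1 to -0.056, -0.017 and -0.12. Without the filter on low counts the medians were 2.30 (Pol I) and 0.87 (Pol II) with isotype and 0.97 (Pol III) with anti-LAIR-1, and Polr2g with isotype was 0.041. With at least 10 counts in every library, where fewer members were tested, they were 1.91 (Pol I), 0.73 (Pol II) and 1.16 (Pol III) with isotype and 0.99 (Pol III) with anti-LAIR-1. After thinning they were 2.32 (Pol I) and 1.19 (Pol III) with isotype, 1.20 (Pol III) with anti-LAIR-1, and -0.15 (Pol III) for the effect of anti-LAIR-1 in stimulated cells. The cause of the other shifts was not tested.

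Leaving out each library in turn gave medians with isotype of 2.14 to 2.29 (Pol I) and 0.66 to 0.86 (Pol II), with anti-LAIR-1 of 2.09 to 2.29 (Pol I) and 0.87 to 0.95 (Pol III), and for the effect of anti-LAIR-1 in stimulated cells of -0.33 to -0.054 (Pol I), -0.16 to 0.048 (Pol II) and -0.12 to 0.024 (Pol III). Polr2g with isotype ranged from -0.11 to 0.0044, with the sign turned without unstimulated mouse 1, and Polr3c with anti-LAIR-1 from -0.22 to 0.30, with the sign turned without unstimulated mouse 1 (-0.078) or anti-CD3 mouse 1. Of 900 values of single genes, 873 kept their direction and side of the threshold. Depth limits genes with few counts, such as Polr3gl, Polr3c and Polr2a.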
